A study of Mus musculus with 2 samples.

Results

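The bile acid axis of the gut was described here as 8 mouse genes. They came from a fixed list of gene symbols, drawn up with earlier results of these data known. Slc10a2, Fabp6, Slc51a and Slc51b carry bile acids across the enterocyte. Nr1h4, Nr0b2, Fgf15 and Gpbar1 sense them or act downstream of the sensor. Of the 8 genes, 7 had a probe set annotated with their symbol alone, 1 each, among 45037 non-control probe sets and 18193 genes. Gpbar1 had none in the annotation used and has no value.

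Bile acids are made in the liver and return to it after uptake in the small intestine, mainly in the ileum, its last segment. Slc10a2 takes them up at the brush border, Fabp6 binds them inside the cell, and the heterodimer of Slc51a and Slc51b releases them towards the blood. Inside the enterocyte bile acids activate the nuclear receptor FXR, the product of Nr1h4, which raises transcription of Fabp6, Slc51a, Slc51b, the repressor gene Nr0b2 and the hormone gene Fgf15. FGF15 travels to the liver and lowers bile acid synthesis, and Gpbar1 encodes a separate receptor at the cell surface.

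The study compared mouse jejunum, the middle segment of the small intestine, on 2 Affymetrix Mouse Genome 430 2.0 arrays. One array carried RNA of wild-type mice and the other RNA of mice labelled XBP1 knock-out, and each RNA was pooled from 3 mice; the 2 samples are called the WT pool and the KO pool, KO standing for the label. XBP1 is a transcription factor of the endoplasmic reticulum stress response. RNA came from scrapings, so all cell types of the mucosa were read together. Strain, age, and the extent and cell type of the deletion are not given in the labels used here.

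Values are MAS5 signals, scaled so that both arrays had the same 75th percentile. A signal of 68.1 units, the median over both arrays, served as a floor. Lower signals were set to it before ratios were taken, which makes a ratio with 1 signal at the floor a bound and leaves none where both are. The floor is not a detection call. Ratios are KO over WT, on a log2 scale where stated, and a gene is called measured when it exceeded the floor on at least 1 array. With 1 array per genotype there was no spread between replicates, and no test or p-value could be given. The number of arrays limits the precision of every value. Probe sets for Xbp1 itself had log2 ratios from -0.26 to 0.063, which checks neither label, since they may lie outside the deleted part. The median log2 ratio over all 12826 measured genes was -0.11. The array's probe sets for the control RNAs meant to be added at labelling and at hybridisation gave another scale, though the labels used here do not record that addition. As deposited, 27 labelling spike probe sets had a median log2 ratio of -0.23 and 18 hybridisation spike probe sets -0.69, and making either set equal on both arrays moved the median of all measured genes to 0.20 or 0.62.

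Fabp6 was the one member past 2-fold under the reported setting, and its promoter is shown because it was also the one member window with matches to the motifs searched. FXR binds an inverted repeat of the hexamer AGGTCA spaced by 1 base, written AGGTCANTGACCT, which reads the same on both strands. XBP1 binds elements with the core TGACGTGG. RefSeq promoter windows of mouse assembly GRCm38.p6 cover 250 bases before and 50 bases after the transcription start, and 7 members had one, all but Fgf15. The sequence below is the 250 bases before the start of Fabp6, at chr11:43601563-43601812 on the minus strand, printed 5′ to 3′ along the gene with the motif matches in capitals.
Fabp6: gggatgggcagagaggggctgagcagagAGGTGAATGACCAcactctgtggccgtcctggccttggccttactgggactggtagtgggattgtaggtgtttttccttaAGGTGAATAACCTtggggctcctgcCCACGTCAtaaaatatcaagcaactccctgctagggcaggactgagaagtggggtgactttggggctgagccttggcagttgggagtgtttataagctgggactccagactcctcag

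The first 2 runs in capitals, AGGTGAATGACCA and AGGTGAATAACCT, each differed from the inverted repeat at 2 of its 12 fixed letters. They lay 222 to 210 and 142 to 130 bases before the start. The third run, CCACGTCA, is the XBP1 core on the opposite strand, 117 to 110 bases before the start, and overlapped neither repeat. Over 32851 windows of the same length, 1.14% held at least 1 inverted repeat with up to 2 mismatches and 0.676% held the XBP1 core. At least 2 such repeats were found in 4 windows, 0.0122% of all, and a repeat together with the core in 4 windows. Both counts include the Fabp6 window, and both combinations are ones that this window shows, so their rarity is not independent evidence. The closest stretches in the windows of Slc51a and Slc51b had 3 mismatches, and those of Slc10a2, Nr1h4, Nr0b2 and Gpbar1 had 4. A longer XBP1 and ATF6 element, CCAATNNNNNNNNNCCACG, was in 0.119% of windows and in no member window. A match describes letters and shows neither binding nor a cause, and elements outside these windows were not searched.

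Of the 7 members with a probe set, 4 exceeded the floor on both arrays, Fgf15 exceeded it on the WT array only, and Slc10a2 and Nr0b2 lay below it on both. In the KO pool 1 of the 5 measured members, Fabp6, was lower by 2-fold or more and 0 were higher by as much. Over all measured genes 5.08% were lower and 2.25% higher by that margin. The median log2 ratio of the 5 measured members was -0.34, with 4 ratios below 0 and 1 above. A single gene past 2-fold among 5 says little against that background, so the members are described one by one.

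**Figure D1:**
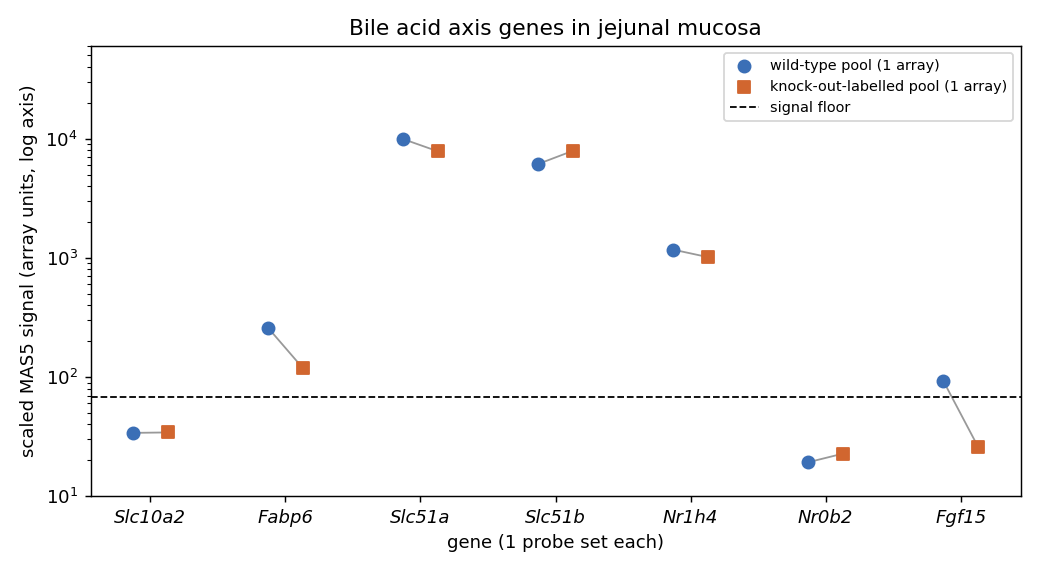
Scaled MAS5 signal (array units, log axis) of the 7 members with a probe set, with a circle for the WT pool and a square for the KO pool, 1 array each, and a dashed line for the floor of 68.1 units. Fabp6 went from 260.0 to 118.5, while Slc51a, Slc51b and Nr1h4 stayed far above the floor on both arrays and Slc10a2 and Nr0b2 lay below it on both.

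Slc10a2, the apical sodium-dependent bile acid transporter that starts uptake in the ileum, gave 34.0 units in the WT pool and 34.3 in the KO pool. Both signals were about 0.50 times the floor, so no ratio was taken. Low signal does not show that the transcript is absent.

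Fabp6, the ileal bile acid binding protein of the cytosol, gave 260.0 units in the WT pool and 118.5 in the KO pool. The KO signal was 45.6% of the WT signal, a 2.19-fold lower value and a log2 ratio of -1.13. In RNA of whole scrapings, fewer enterocytes and less RNA per enterocyte cannot be told apart. Of all measured genes, 3.57% had a ratio as low or lower. Among the 500 measured genes nearest to Fabp6 in mean signal, 8.80% were lower by 2-fold or more and 6.20% had a ratio as low as that of Fabp6. The signals were 3.82 and 1.74 times the floor, in a range where log2 ratios differed between probe sets of 1 gene with an SD of 0.51 over 984 genes, against 0.30 over 3412 genes read above 2 times the floor on both arrays. These SDs hold no variation between mice. The log2 ratio was -1.04 for the values as deposited, -0.81 with labelling spikes made equal on both arrays and -0.35 with hybridisation spikes made equal, so the 2-fold difference was not kept under the last 2 scalings.

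Slc51a, the larger and multi-pass subunit of the basolateral bile acid exporter, gave 9936.7 units in the WT pool and 7823.6 in the KO pool. Slc51b, the single-pass subunit that the exporter needs to reach the membrane, gave 6123.2 and 7919.5. The first was 1.27-fold lower and the second 1.29-fold higher, log2 ratios of -0.34 and 0.37. Neither passed 2-fold, and the 2 subunits lay on opposite sides of 0 except with hybridisation spikes equal, where Slc51a turned to 0.44 and Slc51b reached 1.16 and passed 2-fold. The Slc51a ratio was -0.017 with labelling spikes equal.

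Any scaling by 1 factor per array cancels in the difference between 2 genes of the same arrays. The log2 ratio of Slc51b exceeded that of Slc51a by 0.72 under the reported scaling, by 0.69 after loess and by 0.68 after quantile normalization. Fabp6 minus Slc51a came to -0.79 and Fabp6 minus Slc51b to -1.505 under the reported scaling. Each of these differences rests on 1 probe set per gene. The Slc51a probe set carries the suffix _s_at, used where probes can match more than 1 transcript. Among the 500 measured genes nearest to Slc51b in mean signal, 6.40% had a ratio as high or higher, and among those nearest to Slc51a 25.6% had one as low or lower.

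**Figure D2:**
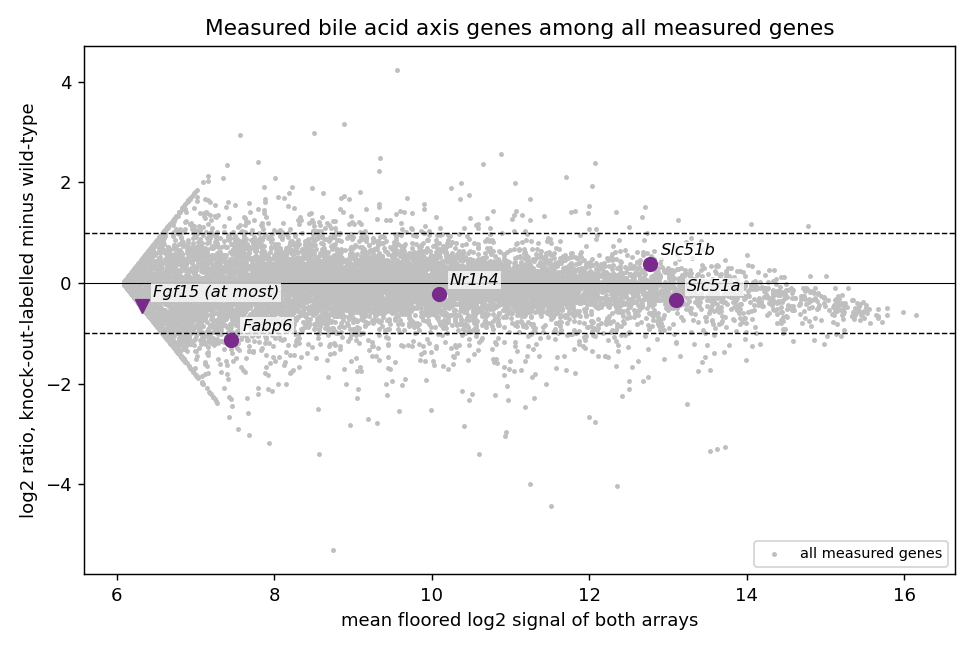
Log2 ratio of KO to WT against mean floored log2 signal, with grey points for all 12826 measured genes, purple points for the 5 measured members and dashed lines at 2-fold. Fabp6 lies just past the lower line at -1.13, the triangle marks Fgf15, whose ratio is an upper bound of -0.46, and the other members lie inside both lines.

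Nr1h4, the gene of FXR, gave 1173.0 units in the WT pool and 1013.3 in the KO pool. The ratio was 1.16-fold lower, -0.21 on the log2 scale, and 40.3% of measured genes had a ratio as low or lower. It was 0.12 and 0.57 with labelling and hybridisation spikes equal, so its direction depended on the scaling. Relative to Nr1h4, the log2 ratio of Fabp6 came to -0.92 and that of Slc51b to 0.58.

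The FXR target genes that act as signals were dim on both arrays. Nr0b2, which encodes the small heterodimer partner SHP, a nuclear receptor without a DNA-binding domain that represses other receptors, gave 19.3 and 22.8 units, 0.28 and 0.33 times the floor, and no ratio was taken. Fgf15, the hormone that reports bile acid uptake to the liver, gave 93.5 units in the WT pool and 25.8 in the KO pool. It exceeded the floor on the WT array alone, by 1.37 times, so it was at least 1.37-fold lower, a log2 ratio of at most -0.46. With the floor at the 25th percentile, 19.6 units, both signals counted and the log2 ratio was -1.86, but that floor admits far dimmer signals. The bound moved to -0.32 with labelling spikes equal and to -0.092 with hybridisation spikes equal. Among the 500 measured genes nearest to Fgf15 in mean floored signal the median log2 ratio was -0.41, and 31.6% had one as low or lower. Flooring largely sets these values. With its KO signal at the floor, the Fgf15 ratio is as low as its mean floored signal allows, and 0 of the 500 genes passed 2-fold. The comparison therefore cannot place Fgf15 among genes of like signal. Gpbar1, the surface receptor also known as TGR5, was not measured here.

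**Figure D3:**
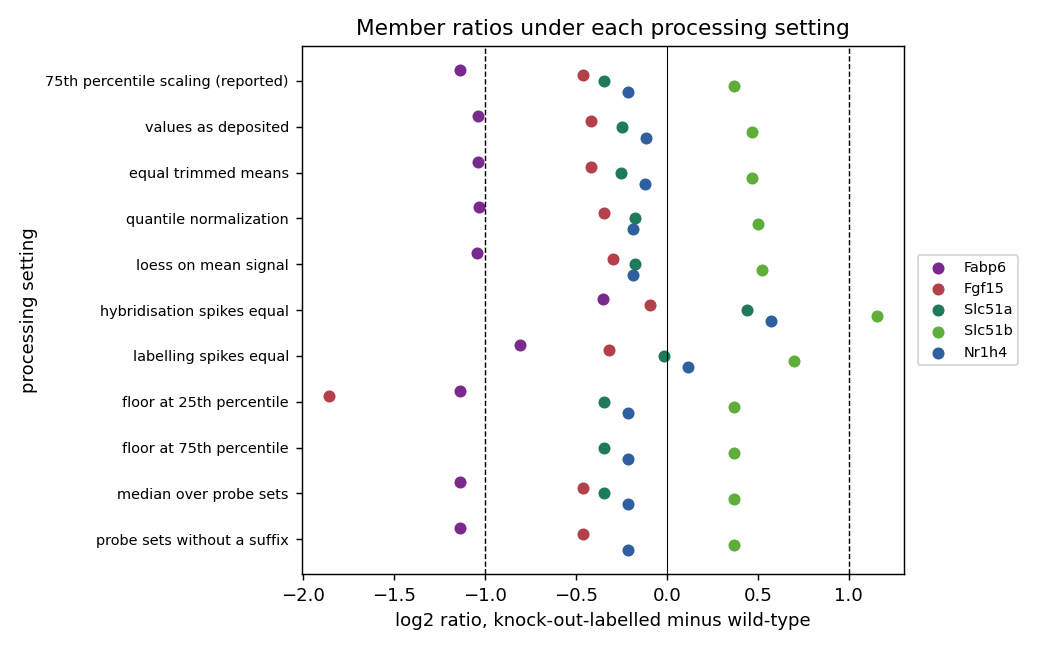
Log2 ratio (horizontal axis) of the 5 measured members under the reported setting and each alternative setting (rows), with dashed lines at 2-fold; a member has no point where it was not measured, and Fgf15 values are upper bounds except with the floor at the 25th percentile. Fabp6 lies between -1.13 and -1.03 in 8 of its 10 settings and nearer 0 in both spike scalings, where Slc51a, Slc51b and Nr1h4 also lie further to the right.

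As genes with the most similar pair of signals to Slc51a, the member with the highest WT signal, Tmbim1 gave 9677.6 and 7896.0 units, Ndufa2 9724.5 and 7985.6, and Sptssa 10244.9 and 7768.9. Their distances from Slc51a were 0.040 to 0.045 in log2 units over 2 arrays, which says only that the numbers are alike.

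Region of the gut matters for these genes, so regional markers are given beside them. Of 7 measured ileal markers, 4 were lower in the KO pool by 2-fold or more and 0 higher, with a median log2 ratio of -1.94 that was -1.16 with hybridisation spikes equal and -0.73 with the lower floor. Cubn, the ileal receptor for vitamin B12 bound to intrinsic factor, went from 13563.6 to 628.3 units. Amn, the partner that brings cubilin to the membrane, went from 12857.5 to 3339.8, Naaladl1, an ileal peptidase, from 39700 to 4021, and Pyy, a hormone gene of distal gut, from 1411.2 to 367.9. Gcg, the gene of GLP-1 in the same kind of endocrine cell, gave 972.7 and 1021.1, the highest ratio of the list at 0.070. Nts and Osr2 gave log2 ratios of -0.73 and 0.013, and Hoxb9 and Hoxc8 lay below the floor on both arrays. Cubn, Amn and Naaladl1 were bright in this jejunal WT pool, where Slc10a2 lay below the floor. Cubn, Naaladl1 and Pyy were already known to be low when the list was drawn up, so its count is not independent evidence.

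Markers of the duodenum and jejunum gave ratios on both sides of 0. Of 16 measured, 2 were lower and 1 was higher by 2-fold or more, and the median was -0.28, turning to 0.028 after quantile normalization and to 0.043 and 0.455 with labelling and hybridisation spikes equal. The lower count was 1 with quantile normalization or the floor at the 75th percentile and 0 with loess or either spike scaling. Lct, lactase, went from 36865.3 to 16522.7 units and Cybrd1, a duodenal iron reductase, from 144.0 to below the floor. Onecut2, a transcription factor of proximal gut, went from 160.0 to 335.7 on its brightest probe set. Its other probe sets gave log2 ratios of 0.62 and 0.275. The higher count was 0 with the median over probe sets or the floor at the 75th percentile. It was 2 as deposited, with equal trimmed means, labelling spikes equal or the floor at the 25th percentile. Hybridisation spikes equal gave 3. Gata4, which marks proximal small intestine and is absent from ileum, gave 1504.5 and 1692.7, a log2 ratio of 0.17. In the colon list 6 of 8 genes with a probe set lay below the floor on both arrays. Slc26a3 had a log2 ratio of -0.10. Aqp8 had one of 0.43 or more, its WT signal being just below the floor. The part of gut region in the Fabp6 and Fgf15 values was not tested.

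**Figure D4:**
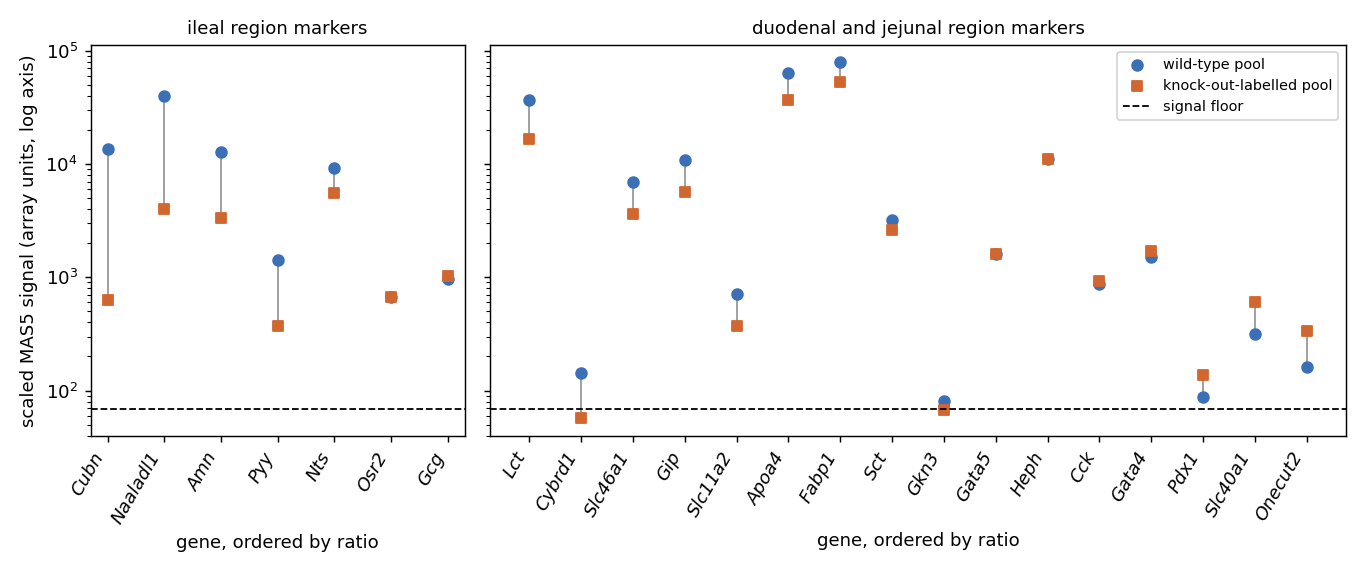
Scaled MAS5 signal (array units, log axis) of measured ileal markers (left) and measured duodenal and jejunal markers (right), ordered by ratio, with circles for the WT pool, squares for the KO pool and a dashed line for the floor. Cubn, Naaladl1, Amn and Pyy lie well below their WT signal in the KO pool, while Gata4 and Gata5 nearly coincide.

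Bile acid transporters act in absorptive enterocytes, so markers of that cell type are given beside the members. All 18 measured enterocyte markers had ratios below 0, and none lay below the floor. Their summed signal was 829605.1 units in the WT pool and 528588.0 in the KO pool, with a median log2 ratio of -0.64 that was -0.057 after quantile normalization and turned to 0.15 with hybridisation spikes equal. Past 2-fold were Treh, trehalase, at -1.46, Lct at -1.16 and Cdhr5, a brush border protocadherin, at -1.14, while the highest was the glucose transporter gene Slc2a2 at -0.057. Of the 3 calls, 1 was left after loess, quantile normalization or with labelling spikes equal, and 0 with hybridisation spikes equal. With probe sets without a suffix 1 was left because Treh and Cdhr5 then had no value. The part of this shift in the member values was not tested.

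Other cells of the scraping were read from marker lists. Macrophage markers, from a cell type that expresses Gpbar1, had 2 of 9 measured genes past 2-fold on the lower side, Lyz2 at -1.73 and Cd68 at -1.08. Cd68 went from 149.0 to 70.4 units, the KO signal being close to the floor. The list had a median of -0.64 and a highest ratio of 0.54 for Mrc1. The count fell to 1 in the values as deposited, with equal trimmed means, quantile normalization, loess, labelling spikes equal or the floor at the 75th percentile, and hybridisation spikes gave 0 lower and 2 higher. Of 12 enteroendocrine markers 1, Pyy at -1.94, passed 2-fold, the highest was Pcsk1 at 0.25 and the median was -0.30. Neurod1 gave -0.575 on its brightest probe set and -1.37, past 2-fold, on its other one. No lymphocyte, smooth muscle, hepatocyte or pancreatic marker passed 2-fold under the reported setting. Medians were -0.50 over 7 lymphocyte markers, from Cd79a at -0.68 to Ms4a1 at -0.17, and -0.29 over 5 smooth muscle markers, from Myh11 at -0.77 to Des at 0.16 or more, its WT signal being below the floor. With the floor at the 25th percentile 2 smooth muscle genes were past 2-fold on the higher side. The median was -0.73 over 2 acinar markers, Prss2 at -0.96 and Cela1 at -0.50. Other probe sets of Prss2 disagreed, at 0.38, -0.365 and at most -0.67. The acinar median was -0.51 with the median over probe sets and -0.50 with probe sets without a suffix or either other floor. Over 5 dim hepatocyte markers the median was -0.44. Apoh and Ttr, read above the floor on both arrays, gave -0.87 and -0.79, while the ratios of Cyp7a1, Cyp2e1 and F2 are upper bounds, and with the floor at the 25th percentile the median was -1.77 and 3 of the markers were past 2-fold. Albumin, Alb, lay below the floor on both arrays. With hybridisation spikes equal the macrophage, enteroendocrine, lymphocyte, smooth muscle and acinar medians were all above 0.

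Among other transporters of bile acids and sterols, 3 of 12 measured genes were lower and 1 was higher by 2-fold or more. Abcc3, a basolateral export pump that also accepts bile acids, went from 1009.3 units in the WT pool to 2250.3 in the KO pool, 2.23-fold higher. Lower were Abcg8, Abcc6 and Abcb4. Abcg8, a subunit of the pump that returns plant sterols and cholesterol to the lumen, gave 3468.5 and 1366.7 units, 2.54-fold. Abcc6 gave 339.1 and 132.1 units, 2.57-fold. Abcb4, a phospholipid floppase of bile canaliculi, gave 197.5 and 89.7 units, 2.20-fold, the KO signal being close to the floor. The hepatic uptake transporter gene Slc10a1 and the hepatic bile salt export pump gene Abcb11 lay below the floor on both arrays. The list median of -0.36 was -0.032 after loess, -0.055 after quantile normalization and turned to 0.10 and 0.26 with labelling and hybridisation spikes equal, and hybridisation spikes left 0 of the 3 lower calls and the floor at the 75th percentile 1.

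Bile acid synthesis belongs mainly to the liver, and 4 of its 17 listed genes lay below the floor on both arrays. Of 13 measured, 2 were lower by 2-fold or more and 0 higher. Their median log2 ratio was -0.35, and 0.17 with hybridisation spikes equal. Only 7 of the 13 exceeded the floor on both arrays, and this median of -0.35 is itself an upper bound. With the floor at the 25th and 75th percentile it was -0.70 and -0.58. Either spike scaling gave 1 lower and 1 higher, and the floor at the 25th percentile 7 lower and 2 higher. Cyp27a1, the mitochondrial sterol 27-hydroxylase, which is also expressed outside the liver, went from 5613.5 to 1404.2 units, 4.0-fold lower, and its second probe set lay below the floor on both arrays. Slc27a2, an acyl-CoA synthetase that activates very long chain fatty acids and bile acid precursors, was 2.49-fold lower. Acox2, the peroxisomal oxidase of the bile acid side chain, had the highest ratio at 0.84. Cyp7a1, the rate-limiting enzyme of the hepatic route and the final target of FGF15, gave 69.3 and 15.05 units, at and below the floor.

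Enzymes that detoxify bile acids and other lipophilic compounds had 2 of 9 measured genes lower by 2-fold or more and 0 higher. Their median was -0.63 and turned to 0.15 with hybridisation spikes equal. The lower count was 1 with quantile normalization, either spike scaling or the floor at the 75th percentile. Ugt2b5, a glucuronosyltransferase, was 6.01-fold lower, from 500.2 to 83.3 units, the KO signal being close to the floor. Cyp3a11, a cytochrome P450 that hydroxylates bile acids, was 2.39-fold lower, from 26516.3 to 11106.4 units. Ephx1, an epoxide hydrolase, had the highest ratio at 0.63. Cyp2b10 lay just short of the threshold at 1.99-fold lower.

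Nuclear receptor partners and regulators were close to the background. Of 21 measured, 1 was lower by 2-fold or more and 0 higher, and the median was -0.16, which turned to 0.17 and 0.58 with labelling and hybridisation spikes equal. Ppara, the fatty acid receptor, was 2.01-fold lower on its brightest probe set, at -1.004, and its other probe sets gave -0.87 and -1.14. The count of 1 fell to 0 in the values as deposited, with equal trimmed means, quantile normalization, loess and either spike scaling. Ppargc1b, a coactivator, was highest at 0.69. For Rxra and Rxrb, which encode partners that bind DNA together with FXR, the log2 ratios were -0.47 and -0.92, both named after their values were seen.

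In the FGF15 signalling list 0 of 13 measured genes were lower and 1 was higher by 2-fold or more. Only 7 of the 13 exceeded the floor on both arrays, and the median of -0.34 is itself an upper bound. It was -0.047 and -0.095 with the floor at the 25th and 75th percentile, and 0.36 with hybridisation spikes equal. Fgfr4, the FGF15 receptor of hepatocytes, gave 56.4 units in the WT pool, below the floor, and 147.8 in the KO pool, so it was at least 2.17-fold higher, but another probe set went the other way, from 103.9 to 31.1 and a ratio of at most -0.61. Its direction is unsettled, and the list had 0 higher genes under the other probe set rules or with the floor at the 75th percentile, and 4 with hybridisation spikes equal. Etv5, a transcription factor induced by FGF signals, was lowest at -0.75 or less. The coreceptor gene Klb lay below the floor on both arrays.

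Genes around the surface receptor had 2 of 13 measured members lower by 2-fold or more and 0 higher, and the median was 0.049. It turned to -0.24 with either other floor and to -0.078 or -0.12 under the other probe set rules. With labelling and hybridisation spikes equal it rose to 0.31 and 0.67. The higher count was 2 with hybridisation spikes equal or the floor at the 25th percentile, and that floor gave 3 lower. The lower count was 1 with probe sets without a suffix or the floor at the 75th percentile. Adcy5, an adenylyl cyclase, was at least 4.79-fold lower on its brightest probe set, from 325.9 units to below the floor, while another probe set gave -0.71. Pyy, secreted by endocrine cells that bile acids stimulate, was 3.84-fold lower. S1pr2, a sphingosine phosphate receptor that also responds to conjugated bile acids, was highest at 0.32, and its second probe set gave at most -0.47.

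**Figure D5:**
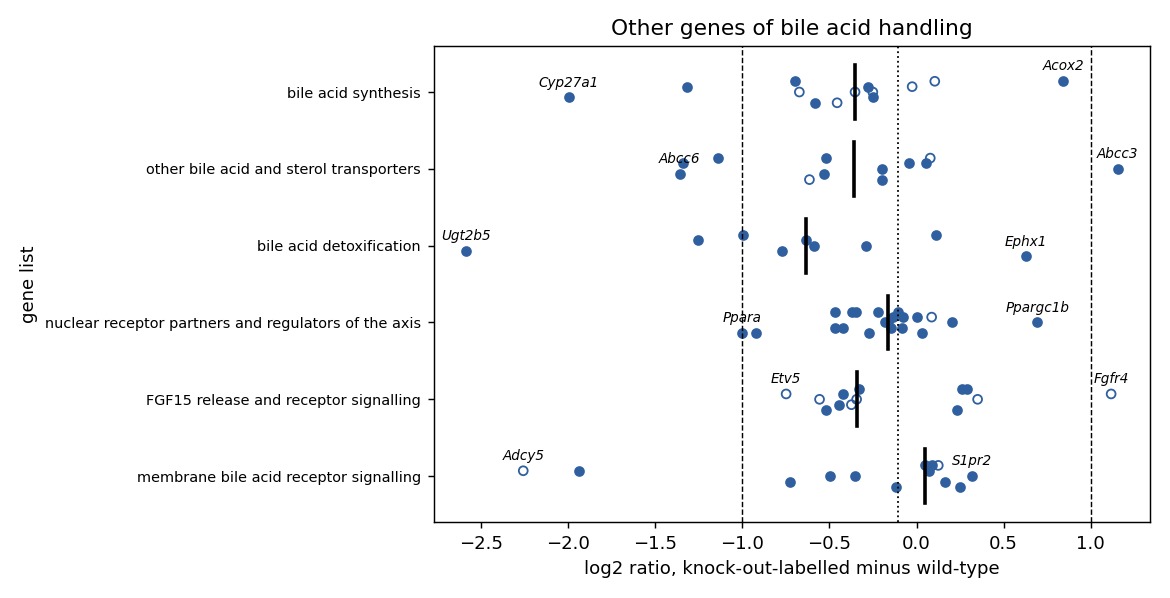
Log2 ratio of KO to WT for each measured gene of 6 lists around the bile acid axis (rows), with filled points for genes above the floor on both arrays, open points for bounds, a bar at each list median, dashed lines at 2-fold and a dotted line at the median of all measured genes, -0.11. The highest and lowest gene of each list are named, among them Abcc3 at 1.16 and Cyp27a1 at -1.999.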

How the data were processed

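The deposited values are linear intensity values, 1 per probe set. The authors computed them with MAS5, per the submitters' processing notes, and the sources used here give no version or detection calls. Both deposited columns had a mean of 500.0 once 2% was trimmed at each end. Symbols came from the platform annotation, updated by Entrez number through RefSeq GRCm38.p6 for 99.4% of single-symbol probe sets, and those with several symbols were not used.

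Arrays were scaled to a common 75th percentile (factors 1.03 and 0.967), floored at the 50th percentile over both arrays and converted to log2. The probe set brightest on average after flooring stood for its gene. Scripts ran in Python 3.11.15 with pandas 2.3.3 and were tested on simulated data. Promoter windows came from RefSeq GRCm38.p6.

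Members and the 16 gene lists were chosen with earlier results of these data known. From each list the text names every gene past 2-fold, or, where a direction had none, the highest or lowest gene; other genes are named for their role or their probe sets. The 12 alternatives changed scaling, floor, probe set rule or threshold.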

Additional observations from a re-analysis of the deposited data

How the results depend on the processing

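With hybridisation spikes made equal, 0 members were at least 2-fold lower and 1, Slc51b, at least 2-fold higher. The members' median was then 0.44, and over all measured genes 126 were lower and 2641 higher, with a median log2 ratio of 0.62. With labelling spikes equal 0 members were lower, their median was -0.017, and 321 genes were lower and 711 higher, with a median of 0.20. A floor at the 25th percentile gave 2 lower members, Fabp6 and Fgf15, and 2531 lower and 1139 higher genes. A floor at the 75th percentile left Fabp6 and Fgf15 unmeasured, so 0 members were lower, with 219 genes lower and 85 higher. At 1.5-fold 2093 genes were lower and 1005 higher, and at 3-fold 0 members and 135 genes were lower and 55 higher. Under the reported setting the counts were 652 lower and 288 higher. Loess, quantile normalization, equal trimmed means, the deposited values, the median over probe sets and probe sets without a suffix kept Fabp6 as the 1 member past 2-fold.

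Of 47 member ratios under alternatives, 37 stayed on their side of 2-fold and, for members short of it, within 0.30 of the reported value. Of 159 list medians, 124 moved by less than 0.30, and of 384 counts within lists 296 stayed within 1.5 times the reported count and 88 did not. No paired analysis was possible because each genotype has 1 array. Signals near the floor limit Fgf15, whose ratio is a bound, and scaling limits the Fabp6 call.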

Other observations

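Some genes of bile acid and sterol handling, chosen after their values were seen, gave further values. Abcg5 and Abcg8 encode the subunits of the sterol export pump. Abcg5 went from 17119 to 11924 units, a log2 ratio of -0.52, against -1.34 for Abcg8. Npc1l1, the cholesterol uptake protein of the brush border, gave 29479 and 20389 units, a log2 ratio of -0.53. Scp2, a sterol carrier with a thiolase form for bile acid side chains, had probe sets that disagreed, at -0.70, -0.56, -2.22 and 0.32 from the brightest to the dimmest. Nr5a2, which encodes LRH-1, gave -0.15, 0.57 and -0.36 on 3 probe sets, so no direction was settled. Nr1i2, the gene of the xenobiotic and bile acid receptor PXR, gave 1637 and 1676 units, a log2 ratio of 0.033 with 0.054 on its second probe set.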
